A study of Drosophila melanogaster with 6 samples.

Results

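Hsp68 and the 6 annotated Hsp70 gene copies of Drosophila melanogaster (Hsp70Aa, Hsp70Ab, Hsp70Ba, Hsp70Bb, Hsp70Bbb and Hsp70Bc) were followed in larval body wall muscle after acute exercise. The 7 genes were taken by their FlyBase symbols from a table of 17477 genes, as a family of interest chosen with earlier results of these data known. The study induced acute exercise by optogenetic muscle contraction and asked which transcripts in muscle respond to it. Messenger RNA was sequenced from 3 exercised and 3 control libraries of larvae in the third instar, each a dissected body wall with the muscles on the cuticle.

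Exercised larvae were OK6-Gal4bc > CsChrimbc, in which the motor neuron driver OK6-Gal4 expresses the red light channel CsChrimson, so that repeated light pulses over 2 h made the body wall muscles contract. Control larvae were w1118, the strain to which both transgenic lines had been backcrossed. Both groups are described as of mixed sex, were fed all-trans retinal, the cofactor of the channel, and received the same 2 h of light. The control larvae carried neither transgene, so the contractions, the driver and the channel cannot be told apart in these libraries. The experiments were run at room temperature, and no library is labelled as heat-shocked.

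Hsp70 proteins are chaperones that use ATP to hold unfolded stretches of other proteins, with J-domain proteins as partners and exchange factors that release the client. The heat-inducible members in flies have no introns and are switched on by heat shock factor (Hsf), which binds heat shock elements in their promoters, where a paused RNA polymerase already waits in unstressed cells. The Hsp70 copies are near-identical in sequence and are almost silent in unstressed tissue, Hsp68 is a more diverged inducible gene, and the Hsc70 genes supply the constitutive proteins of the cytosol, endoplasmic reticulum and mitochondria.

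The 7 genes lie on chromosome arm 3R, each with 1 exon and 1 annotated transcript (release 6 coordinates). Hsp70Aa (chr3R:11954163-11956544, minus strand) and Hsp70Ab (chr3R:11958535-11960909, plus strand) stand 1990 bases apart and point away from each other at the 87A locus. At 87C, 505 kb further along the arm, Hsp70Ba (chr3R:12465453-12467776, minus strand) lies 34733 bases from a tandem group on the plus strand, which holds Hsp70Bbb (chr3R:12502510-12504856), Hsp70Bb (chr3R:12505793-12508139) and Hsp70Bc (chr3R:12509076-12511461) with 936 bases between neighbours. Hsp68 (chr3R:24055080-24057310, minus strand) is a single gene far outside both loci. The sources used here do not state how reads matching several copies were counted, so the count of each copy is uncertain. The sum over the copies, given beside it, does not depend on how reads were divided between copies, but it too is an undercount if reads matching several copies were dropped.

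The exercised libraries held 21168854, 19625425 and 22063283 counts and the control libraries 23953341, 20485254 and 22473256. None of the 7 muscle markers in the table passed the test, and their summed level was 125514 to 137763 CPM (counts scaled to a common library size) in exercised and 124823 to 139931 CPM in control libraries. The 6 fat body markers summed to 4327, 4007 and 3387 CPM in exercised 1 to 3, against 551, 411 and 3610 CPM in control 1 to 3, and 1 of them, Fbp1, passed the test. Control 3 thus stood apart from the other control libraries in the sum of these markers. In bulk samples, more cells of a type and more RNA per cell cannot be told apart. Of 4 hemocyte markers, NimC1 alone passed (log2 fold change 2.79, edgeR adjusted p = 0.00114). The other 3 had log2 fold changes of -0.45 to -0.22 and did not pass. The hemocyte markers summed to 396, 546 and 351 CPM in exercised 1 to 3, against 372, 643 and 623 CPM in control 1 to 3. None of the 5 neuron markers passed. The salivary gland markers were too scarce for the test, at 4.88, 0.207 and 8.93 CPM in sum in exercised 1 to 3, against 0.246, 0.277 and 0 CPM in control 1 to 3, and the midgut markers summed to under 0.647 CPM in every library. The male dosage compensation transcripts also differed between libraries. Transcripts of msl-2 were at 10.2, 6.00 and 5.44 CPM in exercised libraries, against 28.2, 24.9 and 16.9 CPM in control libraries (edgeR adjusted p = 0.0115). The noncoding RNA roX1 was at 56.2, 4.03 and 4.74 CPM in exercised libraries, against 160.3, 157 and 79.4 CPM in control libraries, and did not pass (edgeR adjusted p = 0.203, against 0.00610 without exercised 1). The part of sex composition and of other cell types in the values of Hsp68 and Hsp70 was not tested. The labels name no batch.

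Hsp68 was an abundant transcript in exercised muscle and was far lower in control muscle. Its counts were 22044, 18932 and 23380 in exercised 1 to 3, against 397, 293 and 299 in control 1 to 3. The CPM were 1054, 979 and 1087 in exercised libraries, against 16.3, 13.5 and 13.7 in control libraries. The 2 groups did not overlap, and the libraries within each group lay close together. The mean was 1039.8 ± 55.4 CPM in exercised and 14.5 ± 1.54 CPM in control libraries (SD, n = 3 each). On the log2 scale the fold change was 6.16 (standard error 0.12, edgeR quasi-likelihood test, Benjamini-Hochberg adjusted p = 3.81e-07). Control 3 held Hsp68 between the values of control 1 and control 2. Its summed fat body markers were near those of the exercised libraries. Fbp1 was not, at 0.0914 CPM in control 3 against 1.67, 6.51 and 9.02 CPM in exercised 1 to 3. Lsp2 was not either, at 11.4 CPM in control 3 against 34.6, 22.7 and 21.4 CPM in exercised 1 to 3. The other fat body markers of control 3 lay within the range of the exercised libraries.

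The Hsp70 copies together were close to absent in control muscle and present in every exercised library. Their summed counts were 2422, 664 and 1574 in exercised 1 to 3, against 3, 8 and 2 in control 1 to 3. The summed level was 116, 34.3 and 73.2 CPM in exercised libraries, against 0.123, 0.369 and 0.0914 CPM in control libraries. Exercised 2 was the lowest and exercised 1 the highest of its group, and every exercised library lay far above every control library. The log2 fold change of the sum was 8.56 (standard error 0.80, edgeR adjusted p = 0.00286). With 13 control reads in all, the ratio of the scaled totals was 394 (exact 95% counting interval 230 to 741). Such intervals, and the floors below, cover counting error only and hold no spread between larvae.

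**Figure D1:**
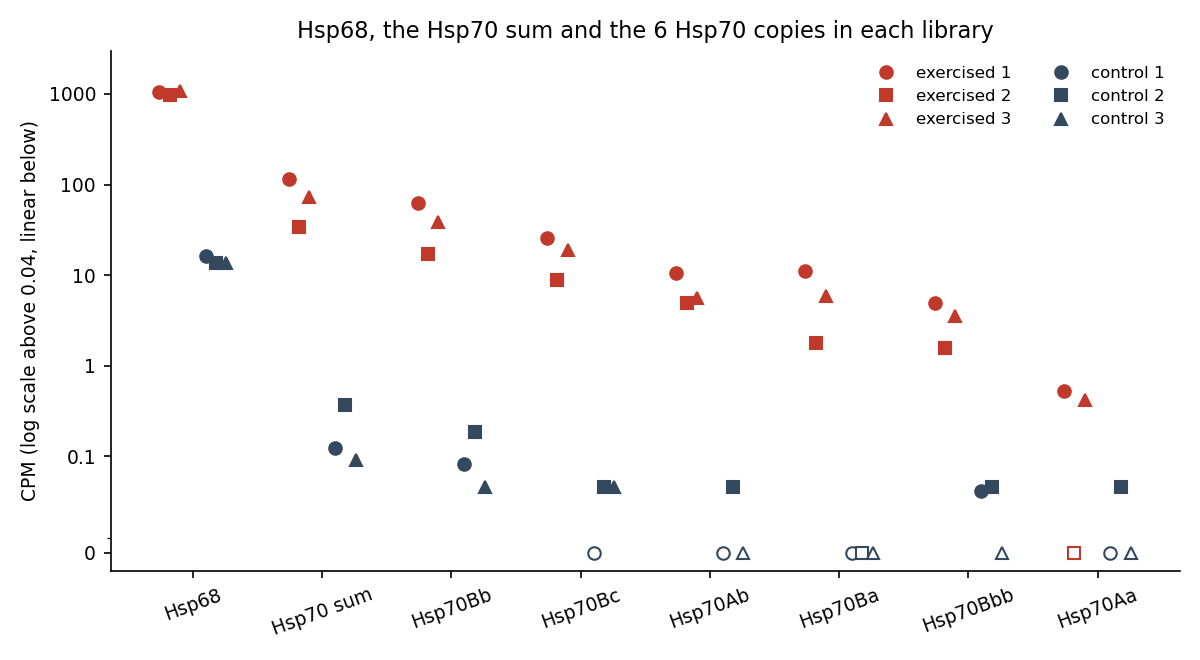
CPM of Hsp68, of the Hsp70 sum and of each Hsp70 copy in every library (vertical axis, log scale above 0.04 CPM and linear below, open symbols at 0), with exercised libraries in red and control libraries in dark blue. Hsp68 lies between 979 and 1087 CPM in exercised and between 13.5 and 16.3 CPM in control libraries, and for Hsp70Aa exercised 2 is at 0 among the control values.

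Of the 7 genes, 6 had enough counts for the test and Hsp70Aa did not. The 6 tested genes were each higher in exercised libraries at an edgeR adjusted p under 0.05, and each had every exercised library above every control library. Over all 9127 genes tested, 10.3% were called higher and 19.8% had every exercised library above every control library. A copy with almost no control reads could enter the test only through its exercised reads, so the count of 6 describes the genes that passed the filter.

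At 87C, Hsp70Bb was the copy with the most reads. It had 1324, 335 and 836 counts in exercised 1 to 3, against 2, 4 and 1 in control 1 to 3, and the groups were far apart (log2 fold change 8.52, standard error 0.84, edgeR adjusted p = 0.00282). Hsp70Bc had 531, 171 and 405 counts in exercised libraries, against 0, 1 and 1 in control libraries. This was a ratio of 609 (exact 95% counting interval 168 to 5036), with an edgeR adjusted p of 0.00102. In both genes exercised 2 was the lowest of its group.

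Hsp70Bbb, which lies between Hsp70Ba and Hsp70Bb, had 102, 30 and 76 counts in exercised libraries, against 1, 1 and 0 in control libraries. The ratio was 114 (exact 95% counting interval 31.3 to 951, edgeR adjusted p = 0.00124). Hsp70Ba, the copy set apart from the tandem group and on the other strand, had 231, 34 and 128 counts in exercised libraries, against 0, 0 and 0 in control libraries. It was at least 144-fold higher in exercised libraries, against a floor of 3 counts over the control group. Its exercised libraries were the most unequal of any copy tested, with exercised 1 at 6.28 times exercised 2. The edgeR adjusted p of Hsp70Ba was 0.0387, and the call was lost without exercised 3 (adjusted p = 0.154), without control 1 (0.0886), control 2 (0.0737) or control 3 (0.0641), and with no filter on low counts (0.136).

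At 87A the reads fell almost wholly to 1 of the 2 copies. Hsp70Ab had 223, 94 and 120 counts in exercised 1 to 3, against 0, 1 and 0 in control 1 to 3. This was a ratio of 481 (exact 95% counting interval 85.9 to 19037, edgeR adjusted p = 0.000422), and the groups did not overlap. Hsp70Aa had 11, 0 and 9 counts in exercised libraries, against 0, 1 and 0 in control libraries. Exercised 2 held no Hsp70Aa read and control 2 held 1, so the groups overlapped, and the ratio of 22.0 had an exact 95% counting interval of 3.52 to 912. A count of 0 allows up to 0.155 CPM in exercised 2. With no filter, edgeR gave Hsp70Aa an adjusted p of 0.0849 and DESeq2 one of 0.103, so a difference was not detected for this copy with these counts.

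Both loci were higher in exercised libraries when their copies were added. The 87A sum was 11.2, 4.86 and 6.00 CPM in exercised libraries, against 0, 0.0923 and 0 CPM in control libraries (edgeR adjusted p = 0.000909). The 87C sum was 105, 29.5 and 67.2 CPM in exercised libraries, against 0.123, 0.277 and 0.0914 CPM in control libraries (edgeR adjusted p = 0.00286). The fold over control was 251 for 87A (exact 95% counting interval 69.2 to 2083) and 420 for 87C (235 to 843), and these intervals overlap widely.

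Within the exercised libraries the order of the largest copies was the same, with Hsp70Bb first and Hsp70Bc second. The exons of the copies are 2324 to 2386 bases long, so exon length hardly alters the read shares. The sequence unique to each copy was not counted. The shares are thus of reads as assigned, and whether they follow transcript levels was not tested. Of the Hsp70 reads, Hsp70Bb took 54.7, 50.5 and 53.1% in exercised 1 to 3, and Hsp70Bc took 21.9% (Wilson 95% interval 20.3 to 23.62%), 25.8% (22.6 to 29.2%) and 25.7% (23.63 to 27.9%). Hsp70Bbb took 4.21, 4.52 and 4.83%, with overlapping Wilson 95% intervals in the 3 libraries. In exercised 2, Hsp70Ab took 14.2% (Wilson 95% interval 11.7 to 17.0%), against 9.21% in exercised 1 (8.12 to 10.4%) and 7.62% in exercised 3 (6.41 to 9.04%). In the same library Hsp70Ba took 5.12% (3.69 to 7.07%), against 9.54% in exercised 1 (8.43 to 10.8%) and 8.13% in exercised 3 (6.88 to 9.59%). The interval of exercised 2 lay apart from both others for Hsp70Ab, and for Hsp70Ba it overlapped that of exercised 3. These intervals leave out the spread between larvae, so the differences between single libraries were not tested. The share of 87A was 10.7 ± 3.11% in exercised libraries and 8.33 ± 14.4% in control libraries (SD, n = 3 each). The control value rests on 2 reads of 13, and an exact two-sided permutation test gave p = 1.0, where 0.1 is the smallest that 3 against 3 libraries allow.

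**Figure D2:**
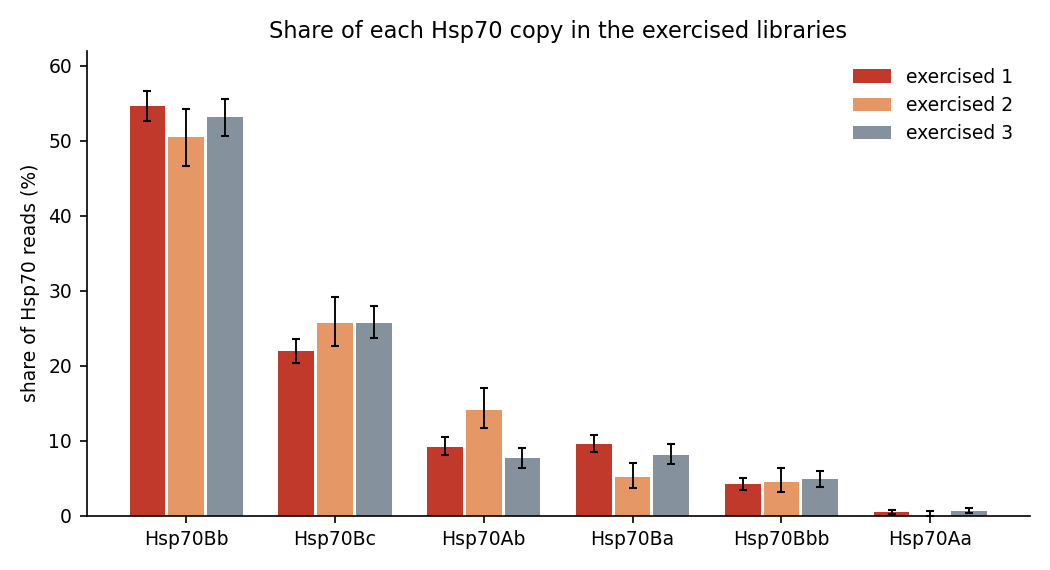
Share of each Hsp70 copy in the Hsp70 reads of the 3 exercised libraries (vertical axis, percent), with Wilson 95% intervals as error bars. Hsp70Bb takes the largest share in every exercised library (50.5 to 54.7%), and Hsp70Ab stands higher in exercised 2 (14.2%) than in the other exercised libraries.

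Per length, Hsp68 stood above the Hsp70 sum as counted in both groups. Dropped reads that match several copies would lower the Hsp70 sum and not Hsp68, so the distance between them, here and in the ratios and family shares that follow, is uncertain. Hsp68 was at 472, 439 and 487 CPM per kb of exon in exercised 1 to 3, against 7.29, 6.06 and 6.12 in control 1 to 3. The Hsp70 sum was at 49.1, 14.5 and 31.0 CPM per kb in exercised libraries, against 0.0521, 0.156 and 0.0387 in control libraries. Of about 17200 genes ranked by CPM per kb, Hsp68 was number 206, 205 and 195 in exercised libraries, against 4299, 4816 and 4776 in control libraries. The Hsp70 sum was number 1044, 2688 and 1432 in exercised libraries and 10875, 9687 and 10876 in control libraries, where these places rest on 2 to 8 reads.

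The change of the Hsp70 sum was set against that of Hsp68 within each library. The log2 ratio of Hsp70 to Hsp68 counts, with 0.5 added to each, was -3.19, -4.83 and -3.89 in exercised libraries, against -6.83, -5.11 and -6.90 in control libraries. Exercised 2 and control 2 were the nearest neighbours across the groups, which did not overlap in these ratios. The control ratios rest on 3, 8 and 2 Hsp70 reads in control 1 to 3. Their counting error was not included, so the gap between the groups is uncertain. The means were -3.97 ± 0.83 in exercised and -6.28 ± 1.01 in control libraries (SD, n = 3 each), a difference of 2.31 in log2 ratio. An exact two-sided permutation test gave p = 0.1, the smallest that 3 against 3 libraries allow, so this design cannot place the difference past 0.05.

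Set beside their constitutive relatives, the inducible genes took a larger part of the family in exercised muscle. Among the CPM per kb of Hsp68, the Hsp70 sum and Hsc70-1 to Hsc70-5, Hsp68 made up 20.8 ± 1.52% in exercised and 0.514 ± 0.114% in control libraries (SD, n = 3 each). The Hsp70 sum made up 2.00, 0.740 and 1.33% in exercised 1 to 3, against 0.00450, 0.0132 and 0.00254% in control 1 to 3. Hsc70-4, the constitutive cytosolic chaperone, held the largest part in both groups, with 58.3 ± 1.09% in exercised and 77.5 ± 0.901% in control libraries. These are parts of a sum, so a rise of Hsp68 lowers the other parts without any change in their level.

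**Figure D3:**
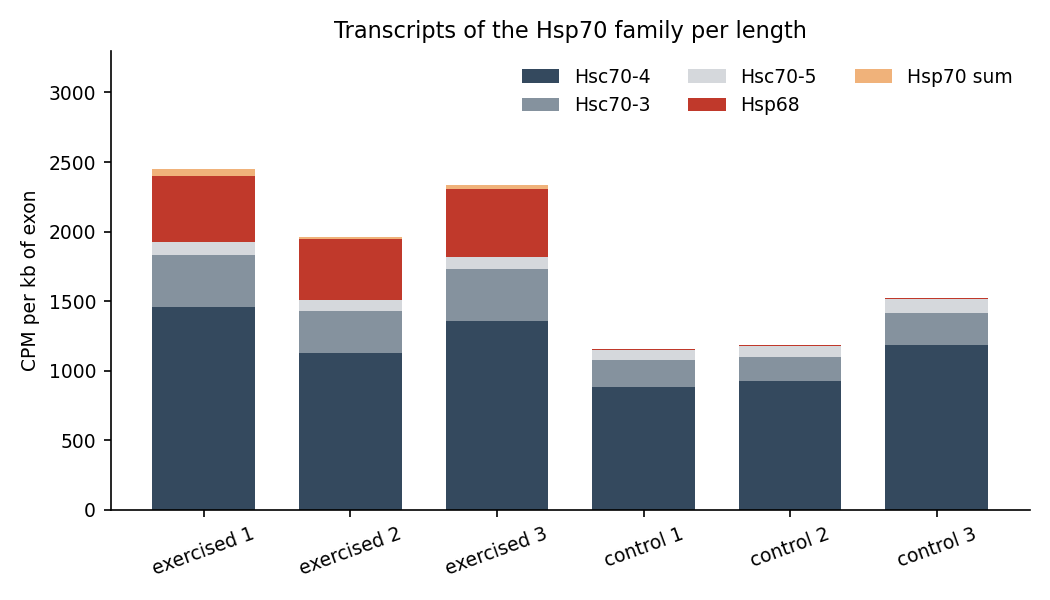
CPM per kb of exon (vertical axis) of the Hsp70 family in each library, stacked with Hsc70-4 at the base, then Hsc70-3, Hsc70-5, Hsp68 and the Hsp70 sum (Hsc70-1 and Hsc70-2, each under 2.04 CPM per kb, are left out). Hsp68 adds 439 to 487 CPM per kb to the exercised libraries and 6.06 to 7.29 to the control libraries.

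The exercised libraries were near-equal in Hsp68 and unequal in Hsp70. The highest exercised library was 1.11 times the lowest for Hsp68 and 3.37 times the lowest for the Hsp70 sum. The SD of log2 CPM over the exercised libraries was 0.08 for Hsp68, and 22.5% of tested genes had a smaller one. For the Hsp70 sum it was 0.89, and 97.4% of tested genes had a smaller one. Exercised 2 stood at 0.914 times the mean of exercised 1 and 3 for Hsp68, at 0.363 times for the Hsp70 sum, and between 0.207 times (Hsp70Ba) and 0.599 times (Hsp70Ab) for the copies tested. Of all tested genes, 36.1% were lowest in exercised 2.

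Other heat-inducible genes ranged from a low level in exercised 2 to an even one. Exercised 2 was at 0.0837 times the mean of the other exercised libraries for the small heat shock protein gene Hsp67Bc, at 0.282 times for DnaJ-1, which encodes a J-domain partner of Hsp70, at 0.398 times for Hsp23 and at 0.550 times for Hsp83, the gene of fly Hsp90. The small heat shock protein gene Hsp26 was closer to even at 0.724 times, and stv, which encodes the BAG family exchange factor starvin, was even at 1.03 times. Exercised 2 was the lowest exercised library in 8 of the 9 tested genes of the heat-inducible list, beside 36.1% of all tested genes, and Hsf itself was at 0.711 times.

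The white gene w, which is mutant in w1118 and is carried as an eye colour marker by many transgenes, was also lowest in exercised 2 of the exercised libraries. It was at 114.9, 40.9 and 101 CPM in exercised 1 to 3, against 0.0819, 0.0461 and 0.0457 CPM in control 1 to 3. Exercised 2 was at 0.380 times the mean of exercised 1 and 3 for w. Many fly transgene vectors also hold short pieces of an Hsp70 gene, as a minimal promoter or as a 3′ end. Counts per gene hold no position within the gene, so reads from such pieces cannot be told apart from reads of the copies, and their part in the Hsp70 values was not tested.

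**Figure D4:**
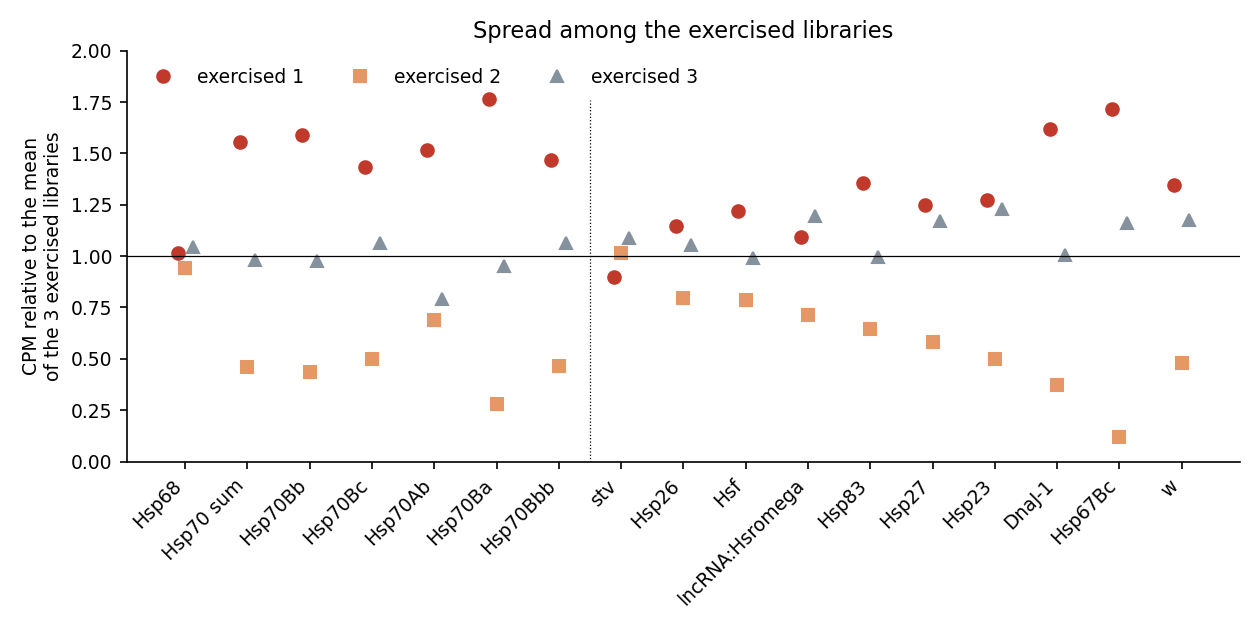
CPM in each exercised library relative to the mean of the 3 exercised libraries (vertical axis), for the members tested and the Hsp70 sum left of the dotted line, and for other heat-inducible genes, Hsf and w right of it. Exercised 2 is close to the others for Hsp68 and stv and is the lowest for the Hsp70 sum, DnaJ-1, Hsp67Bc and w.

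Of 12 genes listed as heat-inducible, Hsf included, 9 had enough counts for the test, and 7 were higher, none lower and 2 did not pass, beside 10.3% higher and 8.52% lower over all genes tested. The median log2 fold change was 2.37, beside -0.01 over all genes tested. The largest changes were those of Hsp26 (log2 fold change 5.46, standard error 0.16, edgeR adjusted p = 3.94e-06), Hsp23 (4.36, standard error 0.53, edgeR adjusted p = 0.00622) and DnaJ-1 (4.16, standard error 0.67, edgeR adjusted p = 0.0150). The fold change of Hsp68 was above that of each of these genes, a difference that was not tested. Hsp67Bc (3.94, standard error 1.13, edgeR adjusted p = 0.0732) and Hsf (0.40, standard error 0.15, edgeR adjusted p = 0.112) were the 2 that did not pass. DnaJ-1 lost its call without exercised 3 (adjusted p = 0.0604) or control 1 (0.0775), and Hsp67Bc (0.00487) and Hsf (0.0161) passed without exercised 2. Hsp67Bc also passed with DESeq2 (adjusted p = 0.00338) and with edgeR at robust=FALSE (adjusted p = 0.0319). Hsp27 (log2 fold change 2.37, edgeR adjusted p = 0.0306) lost its call without exercised 1, exercised 3, control 1 or control 2 (adjusted p = 0.0765 to 0.101). The call of Hsp27 was also lost with no filter on low counts (0.0699). The number higher was 9 without exercised 2 and 5 without exercised 3 or control 1. Hsp22, a small heat shock protein gene of mitochondria, had 0 counts in all 6 libraries, where 3 counts would be 0.123 to 0.155 CPM. These are reads as assigned, and whether Hsp22 transcripts were absent was not tested. Hsp67Ba had 4, 4 and 2 counts in exercised 1 to 3, against 3, 6 and 1 in control 1 to 3. CG4456 had 3, 1 and 4 counts in exercised libraries, against 2, 3 and 0 in control libraries. Both were too scarce for the test.

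The constitutive relatives changed less. The test called 2 of the 6 genes higher and 1 lower, and the other 3 did not pass, beside 10.3% higher and 8.52% lower over all genes tested. Hsp110 (Hsc70Cb), an exchange factor of the same superfamily, changed by a log2 fold of 1.08 (standard error 0.08, edgeR adjusted p = 0.000238), and Hsc70-3, the chaperone of the endoplasmic reticulum, was also higher (0.82, standard error 0.14, edgeR adjusted p = 0.00679). Hsc70-1, a scarce transcript, fell by 1.14 in log2 terms (standard error 0.32, edgeR adjusted p = 0.0420), a call lost without any 1 of the exercised libraries, control 2 or control 3 (adjusted p = 0.0642 to 0.143) and with limma-voom (0.0894). Hsc70-4 (0.39, edgeR adjusted p = 0.0884), Hsc70-2 (0.71, edgeR adjusted p = 0.176) and the mitochondrial Hsc70-5 (0.08, edgeR adjusted p = 0.725) did not pass, though Hsc70-4 passed without exercised 2 (0.0463) or control 3 (0.0277) and with DESeq2 (0.0393).

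Among 13 co-chaperones of Hsp70, 12 were tested, with 4 called higher, 1 called lower and 7 not past the threshold, beside 10.3% higher and 8.52% lower over all genes tested. Their median log2 fold change was 0.18. The J-domain genes Droj2 (0.90, edgeR adjusted p = 0.00100), Tpr2 (0.54, edgeR adjusted p = 0.00723) and DnaJ-H (0.46, edgeR adjusted p = 0.0466) were higher, as was Stip1 (0.63, edgeR adjusted p = 0.0103), which links Hsp70 to Hsp90. STUB1, a ubiquitin ligase that acts on chaperone clients, fell by 0.47 on the log2 scale (edgeR adjusted p = 0.0129). DnaJ-H lost its call without exercised 1, exercised 3, control 2 or control 3 (adjusted p = 0.0931 to 0.160), and STUB1 without exercised 3 (0.0661) or control 2 (0.0537). The number higher lay between 3 and 5 over the alternatives.

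**Figure D5:**
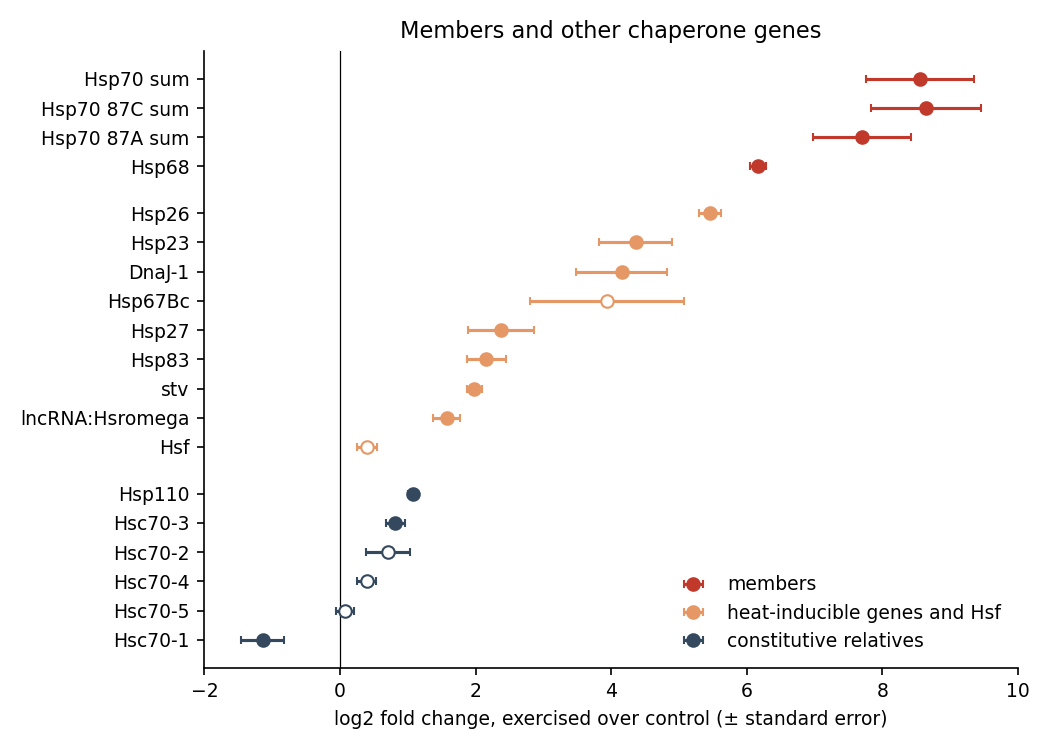
Log2 fold change of exercised over control (horizontal axis, bars are ± 1 standard error) for the members as Hsp68, the Hsp70 sum and the sums of the loci 87C and 87A, for the other heat-inducible genes and Hsf, and for the constitutive relatives, with filled points at an edgeR adjusted p under 0.05. The Hsp70 sum (8.56) and Hsp68 (6.16) lie to the right of Hsp26 (5.46), and the constitutive relatives lie between -1.14 and 1.08.

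Genes whose profile over the 6 libraries was most like that of Hsp68 were found by the root mean square distance of log2 CPM, each gene centred on its own mean. The nearest non-member was sordd2 at a distance of 0.298 in log2 CPM, followed by Osi2 (0.308), Hsp26 (0.404), mthl8 (0.462) and CG31029 (0.476), while the Hsp70 sum lay at 1.12. For the Hsp70 sum the nearest was w at 0.711, followed by CG31029 (0.853), the larval serum protein gene Lsp1gamma (1.09), sordd2 (1.22) and Osi2 (1.34). Hsp26 was thus the 1 chaperone gene among the 5 nearest to Hsp68, and none was among the 5 nearest to the Hsp70 sum. The distance weighs mostly the size of the difference between the groups, and it was used as a description over 6 libraries.

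Genes beside the members changed little or did not pass the test. CG6000, which overlaps the end of Hsp68 by 13 bases on the other strand, had 17, 13 and 18 counts in exercised 1 to 3, against 18, 20 and 21 in control 1 to 3 (edgeR adjusted p = 0.754). CG3281, which overlaps Hsp70Ab by 27 bases on the other strand, had 159, 126 and 141 counts in exercised libraries, against 157, 125 and 132 in control libraries (edgeR adjusted p = 0.374). In CPM the groups overlapped for CG6000. For CG3281 every exercised library, at 6.51 to 7.60 CPM, lay above every control library, at 5.77 to 6.43 CPM. Beside the loci, CG5608 next to 87C had a log2 fold change of 0.40 (edgeR adjusted p = 0.0363) and CG31211 next to 87A fell by 0.37 on the log2 scale (edgeR adjusted p = 0.0306). With 1 library left out, CG5608 kept its call only without control 3, and CG31211 only without exercised 2 (adjusted p up to 0.117 for CG5608 and 0.103 for CG31211). SMC1 next to Hsp68 (adjusted p = 0.298) and Octbeta3R next to 87C (adjusted p = 0.8998) did not pass in edgeR. The noncoding alphagamma-element gene CR32865, which lies between Hsp70Ba and Hsp70Bbb, had 9, 13 and 9 counts in exercised libraries, against 4, 5 and 3 in control libraries, and was too scarce for the test.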

How the data were processed

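The deposited values are raw read counts per gene in 6 libraries. The authors ran FastQC on single-end reads, mapped these with STAR (genome release 6) and made the counts with featureCounts, without pooling replicates. Not given in the sources used here are tool versions, strandedness, read length and the treatment of reads matching several genes. Coordinates came from an annotation of release 6.

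The main test used edgeR 4.0.16 (R 4.3.3). After filterByExpr, 9127 genes remained, and their counts were TMM-scaled and entered glmQLFit (robust=TRUE) and glmQLFTest with condition as the single term, with Benjamini-Hochberg adjustment over all genes tested. For the sums, the Hsp70 copies were replaced by their sum, or by 1 sum per locus, and the table was fitted again. CPM are per TMM-scaled library. Permutation tests ran over all 20 divisions of the libraries. Named are the members, genes of the lists (of co-chaperones, those that passed) and the 5 nearest genes by profile. Also named are the genes beside the loci, w, and markers. Of the markers, Fbp1, Lsp2, NimC1, msl-2 and roX1 were chosen after their values were seen. The members and lists were chosen with earlier results of these data known. The study calls its replicates independent, and the sources used here do not give the number of larvae per library. No duplicate libraries were found. The edgeR, limma-voom and DESeq2 fits were tested on simulated counts, with smaller changes than those of the members. No change was simulated in genes with few counts. The sums, intervals, shares and permutation tests were not part of that test.

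Alternatives were DESeq2 1.42.0, limma-voom (limma 3.58.1), other size factors, other low-count filters, a fit with the replicate number as block, robust=FALSE, another pseudocount for ratios and each library left out in turn.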

Additional observations from a re-analysis of the deposited data

How the results depend on the processing

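Under 14 alternatives Hsp68 kept its direction and its call, with a log2 fold change of 6.11 to 6.26, as did the Hsp70 sum (8.09 to 9.36, adjusted p up to 0.0255), the 87A sum (7.15 to 10.32, up to 0.00750) and the 87C sum (8.17 to 9.21, up to 0.0315). The number of members called higher was 6 with other size factors, DESeq2, limma-voom, robust=FALSE and the replicate block, 5 with no low-count filter, and 4 with the stricter filter (at least 50 counts in 3 libraries), which dropped Hsp70Ba and Hsp70Bbb from the test; with 1 library left out it was 5 to 6. The Hsp70 to Hsp68 log2 ratio difference was 1.84 with 2 added to each count and 2.46 from group totals, and 1.92 to 2.90 with 1 library left out. The difference in the 87A share, 2.34 percentage points, reversed to -5.58 from group totals and to -1.83 without control 1 or control 3, with a range of -1.83 to 10.7 over the libraries left out, since the control share rests on 13 reads. Same-numbered libraries did not deviate together (correlations -0.222, 0.003 and -0.240). These correlations gave no ground for pairing by number. With 3 libraries per group they cannot exclude that same-numbered samples were handled together. With the replicate number as a block, Hsp68 had a log2 fold change of 6.17 and the Hsp70 sum one of 8.49 (edgeR adjusted p = 0.00744), while over all genes 599 were higher and 465 lower, against 936 and 778 without it. With the block DnaJ-1 (adjusted p = 0.0838), Hsp27 (0.0995), Hsc70-1 (0.110), DnaJ-H (0.0628), CG31211 (0.0528) and CG5608 (0.109) lost their calls. Of genes that did not pass, Hsc70-5 ran between -0.034 and 0.225 in log2 fold change and Octbeta3R between -0.092 and 0.270 with 1 library left out. Upper-quartile factors turned the split over all genes to 773 higher and 1003 lower, and leaving out 1 library gave 469 to 934 higher and 358 to 847 lower. Hsp70Aa had the fewest exercised reads of the members, at 20, with 1 control read. Whether depth or the assignment of reads between copies kept its count low was not tested. A count of windows unique to each copy was not run.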
